A study of Mus musculus with 86 samples.

Results

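Of the 11955 oligos in the massively parallel reporter assay (MPRA), 2336 carried the name Ksr2, and these are described here. They were taken by that name from the count files of all 3 reporter experiments, and ordered by oligo number. Of these, 1548 were wild-type stretches of the mouse Ksr2 3′ UTR and 788 were versions of the same stretches with TDP-43 motifs mutated. Each oligo was 260 nt long and began 6 nt after the one before it, so that neighbours shared 254 nt and are not replicates of each other. Together they tiled 9542 nt of Ksr2 (ENSMUSG00000061578), on the plus strand of chromosome 5 in build mm10, starting at 117765557. Oligo 1548 reached 95 nt past the annotated end of the gene, and the sequence of oligos 1533 to 1548 was not analysed here.

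The study asked how TDP-43, an RNA-binding protein, affects where RNAs lie in neuronal cells. Cells grown on porous membranes were separated into soma and neurite fractions, and the localization ratio (LR) is the log2 of the relative abundance of an RNA in neurites over that in soma. CAD and N2A cells, both mouse neuronal lines, carried a TetOff HA-TDP-43 transgene at a single genomic site while their own TDP-43 gene had been cut by CRISPR. Cells without doxycycline (minus dox) therefore also ran on the transgene and are called wild-type, and cells given doxycycline for 48 h (plus dox) are called knockout. The labels give 2 µg/mL doxycycline and the methods 1 µg/mL for the fractionations. Both lines came from single-cell clones, so that all cultures of a line share the clone. No group of these lines was given doxycycline while keeping TDP-43, so effects of the drug itself cannot be told apart. For the MPRA, the pooled oligos were placed in the 3′ UTR of a GFP reporter and transfected into the CAD knockout line, with 4 soma and 4 neurite libraries for each state. For RNA Bind-n-Seq (RBNS), an RNA pool made from the same plasmids was bound by purified TDP-43 at 5, 50 or 500 nM (2 libraries each), beside 1 library with 0 nM protein and 1 of the input. For SLAM-seq, transfected CAD cells were labelled with 4-thiouridine (4SU) and sampled at 0 h and 12 h of chase, with 2 wild-type libraries at 0 h, 3 in each other labelled group and 3 without 4SU. The gene itself was measured by RNA-seq with 3 libraries per group in CAD and N2A cells, and in CAD lines carrying a single-copy transgene of wild-type or Q331K TDP-43. The labels call this overexpression, while the study describes a total TDP-43 level close to that of uninduced cells. That transgene was switched on by doxycycline for 7 days, and these lines keep their own TDP-43 gene, which the protein represses. The number of libraries is the n of every value given. No label says whether replicates were separate cultures in each assay, so the p-values measure the spread between these libraries, which may be partly technical. Below, a numbered culture stands for a replicate number of the labels.

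MPRA libraries held between 7923270 and 12208997 UMIs, RBNS libraries between 1806779 and 9646262 reads, SLAM-seq libraries between 10782983 and 33024830 reads and RNA-seq libraries between 9783050 and 32895542 estimated counts. The count of Tardbp, the gene of TDP-43, takes in the transgene. In soma of CAD cells it fell from 536 ± 28.6 CPM (SD, n = 3) without to 93.7 ± 4.07 CPM with doxycycline, and in N2A cells from 579 ± 29.2 to 169 ± 9.33 CPM.

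KSR2, kinase suppressor of Ras 2, is a scaffold that holds RAF, MEK and ERK kinases together in growth factor signalling, and is known for its part in energy balance. TDP-43 binds UG-rich RNA, above all runs of UG repeats, and shuttles between nucleus and cytoplasm. A 3′ UTR can carry elements that direct an mRNA to neurites or hold it back, which tiling with overlapping oligos can place.

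The study mutated 3 motifs, written here as DNA on the sense strand with overlapping matches counted. The motif GTGTG was changed to CACAC. In the same way TGTGT became ACACA and the motif GTATG became CATAC. At least 1 of these motifs was present in 772 of the 1532 wild-type oligos with sequence (50.4%), and 760 held none. The sequences that carry the results come from 3 regions of the UTR. The first is a GT repeat of 16 nt, held by oligos 118 to 158, around which oligos hold up to 17 motifs. The second is a repeat of GGATG near the 3′ end, in which the few motifs are GTATG. The third is a set of sites whose mutation moved binding to the protein. Capitals mark the motifs, or GGATG in the repeat.
GT repeat, chr5:117766495-117766524, in oligo 130: tacatggGTGTGTGTGTGTGTGTaactgtt
GTATG site in the GGATG repeat, chr5:117774281-117774310, in oligos 1433 and 1444: atgaatggatagGTATGtgaatgaatggat
second GTATG site, chr5:117774376-117774405, in oligos 1433, 1444 and 1468: atggatggatagGTATGtgaataaatggat
GGATG repeat, chr5:117774353-117774382, shared by the oligos with the largest changes: tgaatGGATGaatGGATGggtgaatGGATG
GGATG repeat, chr5:117774541-117774570, in oligo 1496, which has no motif: tgtattcgtGGATGggtgaatGGATGGATG
TGTGT site, chr5:117770579-117770608, in oligo 838: tgcctgactcTGTGTttctaggcctttctt
GTGTG site, chr5:117770619-117770648, in oligo 838: ttcatcatgataGTGTGagggtgaggagga
cluster of 3 motifs, chr5:117765785-117765814, in oligo 20: agggtcccaTGTGTGGTGTGaaggagccac

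In knockout cells, Ksr2 reporters from 1 stretch of the UTR were more enriched in neurites. The LR rose in 81 of 1548 wild-type oligos and fell in 0 (edgeR quasi-likelihood test, adjusted p under 0.01), against 5.15% of all oligos of the pool that rose and 0.277% that fell. The share that rose was thus near that of the pool, but the 81 oligos were consecutive, numbers 1416 to 1496, spanning chr5:117774047-117774786. Their rise averaged 3.28 on the log2 scale and ranged from 0.36 in oligo 1416 to 5.13 in oligo 1444. Rises above 4 were seen in 33 oligos numbered between 1434 and 1467, and these shared 62 nt at chr5:117774353-117774414. No base was common to all 81.

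On average, the reporters outside those 81 oligos lay evenly between soma and neurites in both states. The 1467 other wild-type oligos had a mean LR of 0.01 ± 0.01 (SD, n = 4) in wild-type cells and -0.00 ± 0.02 in knockout cells. Among them 17 passed the test with an LR above 0 and 3 with one below 0 in wild-type cells, and 17 and 20 in knockout cells. In the 14 blocks of 100 consecutive oligos from 1 to 1400, block means ran from -0.06 to 0.04 in wild-type cells and from -0.08 to 0.02 in knockout cells, and the cultures of the 2 states overlapped in 13 of the 14 blocks. The oligos just outside the stretch changed by 0.13, 0.30 and 0.15 (1413 to 1415) and by 0.41, 0.42 and 0.37 (1497 to 1499), of which 1498 had an adjusted p of 0.0154. The largest fall among the outside oligos was -0.36 in oligo 383, with an adjusted p of 0.342 in edgeR.

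Step by step through the stretch, the LR in knockout cells climbed and fell as a plateau. Oligo 1410 had a mean LR of 0.18 in knockout cells, oligo 1420 2.35, oligo 1430 3.27 and oligo 1440 4.64. The plateau was reached by oligos 1450 (4.88), 1460 (4.82) and 1470 (4.80). The LR in knockout cells then declined to 4.39 in oligo 1480, 3.57 in oligo 1490, 2.82 in oligo 1500 and 1.03 in oligo 1510, and oligo 1520 was at -0.11.

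The LR in wild-type cells followed a different course. It was 0.27 in oligo 1420, 0.02 in oligo 1430, -0.02 in oligo 1440 and 0.25 in oligo 1450. It then rose to 1.07 in oligo 1470, 2.43 in oligo 1480, 1.79 in oligo 1490 and 2.47 in oligo 1500 before falling to 0.88 in oligo 1510 and -0.06 in oligo 1520. Neurite enrichment in the presence of TDP-43 was thus found at the 3′ side of the stretch and beyond it.

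Individual oligos show the range. Oligo 1444, at the peak of the change, had LR values of -0.87, 0.07, -0.27 and -0.45 in the 4 wild-type cultures and of 4.62, 4.64, 4.50 and 5.11 in the knockout cultures. The groups were far apart, and the change was 5.13 ± 0.25 (SE, edgeR adjusted p = 1.39e-14). Oligo 1416, the first of the stretch, went from -0.01, 0.23, 0.24 and 0.21 to 0.57, 0.41, 0.43 and 0.69, also without overlap, with a change of 0.36 ± 0.08 (SE, edgeR adjusted p = 0.00315). Without culture 1 or culture 4 this change was 0.28 or 0.32 and no longer passed the threshold.

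Oligo 1496, the last of the stretch, was enriched in neurites in both states. Its LR was 2.90, 2.94, 2.85 and 2.97 in wild-type cells and 3.36, 3.20, 3.53 and 3.58 in knockout cells. These groups did not overlap either, and the change was 0.52 (edgeR adjusted p = 0.00538). Leaving out culture 1, 3 or 4 gave 0.53, 0.46 and 0.48 and lost the call.

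The oligos of the stretch rose in both compartments. All 81 oligos of the stretch were higher in knockout soma and higher in knockout neurites. In knockout soma 95 of 1548 wild-type oligos were higher and 3 lower, against 7.55% and 0.101% of the pool. Of the 95, 89 formed the run from 1411 to 1499, with the largest difference of that run in oligo 1454 (2.36 on the log2 scale). In knockout neurites 97 were higher and 7 lower, against 8.06% and 0.696% of the pool. Of the 97, 92 lay between 1409 and 1501, where oligo 1447 differed by 6.88. The mean log2 CPM of the 81 oligos was 4.44 in wild-type soma, 6.14 in knockout soma, 5.22 in wild-type neurites and 10.19 in knockout neurites.

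As a share of all UMIs, the 81 oligos took 0.251% of wild-type soma libraries and 0.694% of knockout soma libraries. In neurites they took 0.627% in wild-type cells and 8.25% in knockout cells, where single cultures held from 7.25% to 9.25%. Oligo 1444 alone went from 7.45 to 22.7 CPM in soma and from 5.77 to 597 CPM in neurites. In such bulk fractions, a change in the number of cells or neurites that hold a reporter and a change in its RNA per cell cannot be told apart.

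The stretch coincides with the GGATG repeat. At least 5 copies of GGATG were present in 100 wild-type oligos, numbers 1409 to 1508, and all 81 oligos of the stretch were among them. Before oligo 1400 no oligo held more than 2 copies, although 362 of 1399 held at least 1. The highest number, 18 copies, was in oligo 1444. How reads of neighbours within this repeat were assigned to single oligos was not tested, so that the positions hold for the stretch more firmly than for a single number in it.

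Motif number did not order the reporters in the same way. The 43 oligos with at least 10 motifs, numbers 117 to 159 around the GT repeat, had changes of LR between -0.25 and 0.17, and 0 of them were called. In the stretch itself, 57 oligos held at least 1 motif and 24, numbers 1473 to 1496, held none. The 57 oligos with a motif had a mean LR of 0.28 ± 0.19 (SD, n = 4) in wild-type cells and of 4.09 ± 0.18 in knockout cells.

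The 24 oligos without a motif started higher and ended at a similar level. Their LR was 1.76, 1.98, 2.06 and 2.10 in the wild-type cultures and 3.91, 3.73, 3.96 and 4.18 in the knockout cultures. Behind them, oligos 1497 to 1511 were enriched in both states, at 2.29, 1.73, 1.87 and 1.92 in wild-type and 2.16, 1.89, 2.30 and 2.25 in knockout cultures, which overlapped. From oligo 1512 to the end, 37 oligos averaged -0.03 ± 0.27 and -0.11 ± 0.13.

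Tested on its own, the LR in wild-type cells was above 0 in 52 and below 0 in 3 of 1548 wild-type oligos, against 2.57% and 1.48% of the pool. Of the 52, 46 formed the run from 1466 to 1511, with a peak of 3.0 in oligo 1482. In knockout cells 98 were above and 20 below 0, against 5.82% and 1.22% of the pool, and all 98 lay between 1414 and 1512. Of the mutated oligos, 2 were above and 6 below 0 in wild-type cells, and 60 above and 6 below 0 in knockout cells.

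Mutating the motifs left most of the change in place. Of 788 mutated oligos 55 rose and 0 fell, and these 55 were numbers 1418 to 1472. The 57 mutated oligos in the stretch had a mean LR of -0.14, -0.10, 0.11 and 0.11 in the wild-type cultures and 3.33, 3.18, 3.33 and 3.55 in the knockout cultures. Their change averaged 3.36, beside 3.82 for their 57 wild-type partners.

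A test of each mutated oligo against its wild-type partner asked whether the motifs themselves mattered. The change of LR was smaller in the mutated oligo in 21 pairs and larger in 1 of 788, against 7.58% and 0.0220% of all pairs in the pool. All 21 lay between numbers 1418 and 1447. Of the 32 pairs of the stretch up to number 1447, all had a smaller change in the mutated oligo, with a median difference of -0.67. Beyond number 1447, 0 of 25 pairs of the stretch passed the test, with a median of -0.11. The limit of 1447, the last pair called, was set from these results.

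The largest of these differences was in pair 1433, in which both GTATG sites shown above were mutated to CATAC. The wild-type oligo 1433 had LR values of -0.52, -0.39, 0.03 and -0.09 in wild-type cells and of 3.74, 3.51, 3.70 and 3.92 in knockout cells. Its mutated partner had -0.48, -0.62, -0.27 and -0.35, and then 2.37, 2.17, 2.18 and 2.34. The wild-type groups overlapped and the knockout groups did not, and the change was smaller by 1.28 in the mutated oligo (log2 difference -1.28 ± 0.10 SE, edgeR adjusted p = 1.34e-09).

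Pair 1444 carries the same sites further 5′ within the oligo. The mutated oligo 1444 had LR values of -0.49, -0.49, -0.62 and -0.30 in wild-type cells and of 3.40, 3.65, 3.65 and 3.83 in knockout cells. Its change was thus 4.12, and the difference from the wild-type oligo was -1.01 ± 0.20 (SE, edgeR adjusted p = 0.00096). That call was lost without culture 1 (-0.80) or culture 4 (-0.87).

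The 1 pair in which mutation gave a larger change was 1396, outside the stretch. Its wild-type oligo had an LR of 0.14, -0.04, 0.03 and -0.11 in wild-type cells and -0.13, -0.09, -0.13 and -0.31 in knockout cells. The mutated oligo had -0.18, -0.24, -0.39 and 0.03, and then 0.04, 0.08, 0.18 and 0.30. The difference was 0.52 ± 0.12 (SE, edgeR adjusted p = 0.0043), and it missed the threshold without culture 1, 2 or 3.

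Some pairs had nearly the same UMI counts in both partners. In 93 Ksr2 pairs every mutated base lay more than 103 nt from the 5′ end and more than 89 nt from the 3′ end of the oligo, limits set where the UMI counts of partners in the pool became nearly equal. The median absolute log2 ratio of the partners was 0.031 in these pairs, beside 0.475 in the other 695, and over the pool it was 0.030 in 671 pairs and 0.493 in 3895. None of the 93 pairs was called for the change of LR. In the stretch only pair 1430 was of this kind (difference -0.07, edgeR adjusted p = 0.923), and it is the only pair between 1418 and 1435 that was not called. Whether the reads reached the mutated bases of such pairs was not tested, and since the limits were set on these counts, the ratios are a description.

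In RBNS, R is the share of an oligo among the reads of a protein library over its share in the input. Like the pool as a whole, the Ksr2 UTR was more often depleted than enriched. At 500 nM, 49 of 1462 wild-type oligos that passed the count filter were enriched and 246 depleted (edgeR, adjusted p under 0.01), against 6.78% and 14.5% of the pool. Over wild-type and mutated Ksr2 oligos together 80 were enriched and 364 depleted. This split depends on scaling. TMM in place of library totals raised the median of all oligos by 0.56 (log2). With TMM, 238 Ksr2 oligos were enriched and 212 depleted. The pool of 11025 oligos turned too, with 1505 enriched and 1100 depleted. At 50 nM, 40 wild-type oligos were enriched and 179 depleted, against 5.39% and 10.3% of the pool. With TMM, 1379 oligos of the whole pool were enriched at 50 nM and 731 depleted. Over both kinds of Ksr2 oligo the 97 enriched and 293 depleted at 50 nM became 250 and 167 with TMM, and 0 passed in edgeR without replicate 2 at 50 nM, where 262 were higher and 658 lower at an unadjusted p under 0.05. At 5 nM and at 0 nM no Ksr2 oligo passed in edgeR. With an unadjusted p under 0.05, 56 wild-type oligos were higher and 138 lower at 5 nM, and 8 and 146 at 0 nM, and DESeq2 called 3 Ksr2 oligos higher and 7 lower at 5 nM.

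Of the wild-type oligos enriched at 500 nM in edgeR, most lay around the GT repeat. The median log2 R of the 43 oligos with at least 10 motifs was 1.95, beside 2.39 in the stretch of 81. Enriched at 500 nM were 6 of the 8 oligos from 118 to 125 and 20 of the 23 from 129 to 151, which together are the 26 enriched among the 43 oligos with at least 10 motifs. The peaks were oligo 121 at 2.18 and oligo 130 at 2.73 on the log2 scale. Oligo 130, chosen after its values were seen, had an R of 1.37 without protein, of 1.35 and 2.13 at 5 nM, of 10.2 and 13.8 at 50 nM and of 7.88 and 5.35 at 500 nM. Its mutated partner, changed at 4 sites with the 16 nt repeat among them, had an R of 4.21 and 3.85 at 50 nM and of 2.24 and 1.89 at 500 nM. The difference of the pair at 500 nM was -1.66 ± 0.33 (SE), which just missed the adjusted threshold of 0.01 in edgeR. Its LR changed by -0.01 on loss of TDP-43.

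Also enriched were 10 of the 11 oligos from 1073 to 1083, which held 1 motif each, with a peak of 2.05 in oligo 1079. Over all 43 enriched wild-type oligos outside the stretch, the change of LR lay between -0.25 and 0.21, and 0 were called. Enriched at both 50 and 500 nM were 24 wild-type oligos. The depleted oligos formed runs of their own, among them 12 to 33, 842 to 879, 1016 to 1040 and 1352 to 1375, and the largest depletion in these was -5.79 in oligo 1370.

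In the stretch whose LR rose, all 81 wild-type oligos were above input at 500 nM. Their median log2 R was 2.39, with a range from 0.70 to 3.82. Of them 6 passed the adjusted threshold and 55 had an unadjusted p under 0.05. The precision there is low, since these oligos had a median of 24 input reads, beside 478 for the wild-type oligos outside the stretch. The number called in the stretch was 37 with DESeq2, 38 with TMM, 30 against the 0 nM library and 1 with a replicate block, and all 81 were above input in each of these.

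The mean log2 R of the stretch was above 0 in every protein library and below 0 without protein. It was -0.97 at 0 nM, 0.89 and 1.91 at 5 nM, 1.90 and 1.62 at 50 nM, and 2.23 and 2.47 at 500 nM. The wild-type oligos outside it were at -0.54 at 0 nM, at -0.41 and -0.43 at 5 nM, at -0.84 and -1.02 at 50 nM, and at -0.91 and -0.64 at 500 nM. The 24 oligos without a motif were at 2.54 and 2.47 at 500 nM and the 57 with a motif at 2.10 and 2.47, so that the libraries of the 2 sets overlapped.

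Oligo 1468 had the highest mean R at 500 nM of all Ksr2 wild-type oligos that passed the filter. Its R was 3.30 without protein, 11.1 and 10.6 at 5 nM, 8.58 and 6.65 at 50 nM and 13.0 and 13.4 at 500 nM, from 5 input reads, so that it passed the filter on the reads of the protein libraries. With its GTATG site mutated, R was 7.47 and 9.75 at 500 nM, from 11 input reads. Its LR was 0.91, 0.69, 0.85 and 1.29 in wild-type cells and 4.63, 4.64, 4.89 and 5.09 in knockout cells, with no overlap.

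Oligo 651 had the lowest mean R at 500 nM. It had 27 reads in the input and 0 in every protein library and in the 0 nM library, and was thus absent without protein too. Oligo 1444 was in between, at 3.93 and 3.31 at 500 nM from 15 input reads, and its mutated partner at 4.88 and 6.45 from 12. As a set, oligos 601 to 700 had a mean log2 R of -2.22 without protein and of -2.27 and -1.92 at 500 nM, and oligos 1512 onwards of -4.23 without protein and of -0.55 and 0.42 at 500 nM.

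The pairs in which mutation changed binding at 500 nM past the threshold lay outside the stretch. Of 728 pairs tested, the mutated oligo bound less in 32 and more in 13, against 8.11% and 0.801% of all pairs. The pairs that bound less clustered at numbers 142 to 150 (6 of 9, median difference -1.85), 471 to 475 (3 of 5), 811 to 820 (7 of 10, -2.41) and 830 to 840 (10 of 11, -2.26). The pairs that bound more clustered at 18 to 40 (8 of 23, median 1.86) and 486 to 498 (4 of 13, 1.12). In the stretch 0 of 57 pairs passed in edgeR, 1 had an unadjusted p under 0.05, and the median difference was 0.13. On simulated data this test of pairs recovered 1 of 50 lowered by 2 and 5 of 50 raised by 2 (log2). It therefore cannot show that mutation left binding in the stretch unchanged.

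Differences over all pairs ran from -4.50 to 3.64. Among the pairs called, 838 had the largest loss of binding. Its wild-type oligo had an R of 1.75 and 2.07 at 500 nM and its mutated partner of 0.175 and 0.215, a difference of -3.30 ± 0.40 (SE, edgeR adjusted p = 0.0019). The largest gain among the pairs called was in pair 20, from 0.189 and 0.174 to 1.75 and 1.35, a difference of 3.09 ± 0.55 (SE, edgeR adjusted p = 0.0065). In all 6 of these clusters no pair was called for the change of LR. With limma, or without either of the 500 nM libraries, 0 Ksr2 pairs passed in either direction, so these calls rest on both libraries and on edgeR.

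SLAM-seq follows label, read as T-to-C conversions, as it is lost during the chase. The libraries differed in ways that touch every oligo: label was 1.94% and 1.93% of T positions at 0 h and 1.17%, 1.17% and 1.33% at 12 h in wild-type cells, and 1.81%, 1.83% and 1.91% at 0 h in knockout cells. At 12 h the knockout libraries held 1.37%, 0.465% and 0.511%, so that replicate 1 stood apart from the others. The libraries without 4SU were at 0.244%, 0.194% and 0.164%, which bounds the label that can be read. On this scale the label of 1444 of 1463 wild-type and 693 of 703 mutated Ksr2 oligos fell in knockout cells (edgeR, adjusted p under 0.05), against 97.2% of the pool. In wild-type cells 0 fell, against 0.00946% of the pool, while 133 wild-type and 87 mutated oligos had an unadjusted p under 0.05. This contrast hangs on knockout replicate 1 at 12 h, which enters the shared estimate of the spread: without it, label fell in 1445 wild-type and 692 mutated Ksr2 oligos in wild-type cells, against 97% of the pool. The difference between knockout and wild-type in label loss passed for 0 Ksr2 oligos in edgeR, where 40 wild-type and 31 mutated oligos were lower at an unadjusted p under 0.05, and for 0 of the pool. Without knockout replicate 1 at 12 h it was lower in 2101 Ksr2 oligos, against 96.3% of the pool that was lower and 0.0473% that was higher.

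Set against the label of its own library, the stretch kept more label than the rest of the UTR in knockout cells. The relative label of the 80 wild-type oligos measured there was 1.15, 1.16 and 1.20 at 0 h and 1.25, 1.74 and 1.74 at 12 h in knockout libraries. In wild-type libraries it was 1.12 and 1.12 at 0 h and 1.01, 1.09 and 0.96 at 12 h. The lowest knockout library at 12 h, replicate 1, was thus still above the highest wild-type library at 12 h. The wild-type oligos outside the stretch stayed near 1, at 1.0, 0.96 and 0.98 in the knockout and 1.0 in each of the 3 wild-type libraries at 12 h.

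Tested on this relative scale, which was added after seeing the data, the change of stability passed for 0 Ksr2 oligos in edgeR, while 52 of the 80 in the stretch were higher at an unadjusted p under 0.05. When knockout replicate 1 at 12 h was also left out, 119 of 1463 wild-type oligos had a higher and 167 a lower ratio, against 9.90% and 11.1% of the pool. In the stretch 56 of 80 were then higher and 0 lower, with a median of 0.71 on the log2 scale. The 3′ neighbours from 1512 on went the other way, with a relative label of 0.84, 0.51 and 0.57 in knockout and 0.79, 0.73 and 0.78 in wild-type libraries at 12 h.

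The subsets of the stretch shared this course in knockout cells. At 12 h the 24 oligos without a motif were at 1.28, 1.79 and 1.83 in knockout and 1.17, 1.28 and 1.12 in wild-type libraries, which overlap in 1 library of each state. The 56 measured oligos with a motif were at 1.24, 1.72 and 1.70, and at 0.94, 1.01 and 0.88. The mutated oligos of the stretch were at 1.19, 1.52 and 1.52, and at 0.95, 0.99 and 0.90. Oligo 1444 was at 1.17, 2.17 and 1.67 in knockout and at 1.01, 1.03 and 0.83 in wild-type libraries. Without 4SU, the 80 oligos had a relative rate of 1.01, 1.32 and 1.42, and the part of this background in the values at 12 h was not tested.

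The gene itself was more enriched in neurites of knockout cells in both lines. In CAD cells Ksr2 was at 24.9, 25.6 and 21.4 CPM in wild-type soma and at 18.7, 16.9 and 14.2 in wild-type neurites. In knockout cells it was at 18.5, 15.9 and 17.4 CPM in soma and at 267, 370 and 359 in neurites. Neurites thus held far more in knockout cells, with no overlap, and the LR rose by 4.81 ± 0.18 (SE, edgeR adjusted p = 5.06e-11), where 0.225% of all genes rose and 0.208% fell. The gene and its reporters were measured and normalised separately, so that the sizes of their changes were not tested against each other.

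In N2A cells the 4 groups were ordered alike except for soma. Wild-type soma held 17.2, 15.8 and 12.7 CPM and wild-type neurites 7.17, 7.35 and 7.18. Knockout soma held 34.9, 34.7 and 28.7 CPM and knockout neurites 475, 440 and 223. The LR rose by 4.61 ± 0.32 (SE, edgeR adjusted p = 6.11e-06), where 0.0893% of all genes rose and 0.0112% fell. Without replicate 2 the rise was 4.48 with an adjusted p of 0.0148 in edgeR, which missed the threshold of 0.01.

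Soma differed in direction between the lines. In CAD cells soma Ksr2 fell by 0.48 on the log2 scale (edgeR adjusted p = 0.00655), and without replicate 2 or 3 it fell by 0.38 or 0.56 and missed the threshold. In N2A cells it rose by 1.10 (edgeR adjusted p = 0.0016), which was lost without replicate 2 (adjusted p = 0.0525 in edgeR). The reporters of the stretch, measured in CAD cells, were higher in knockout soma.

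Cells with a wild-type or Q331K TDP-43 transgene did not separate for Ksr2. Soma held 17.4, 21 and 21.8 CPM with the wild-type and 21.6, 22.7 and 22.0 with the Q331K transgene, and neurites 14.5, 12.8 and 16.6 against 14.2, 16.1 and 17.4, and the groups overlapped in both fractions. The difference in LR was -0.02 ± 0.17 (SE, edgeR adjusted p = 0.999), where no gene passed. Soma Tardbp was at 769 and 758 CPM in these lines.

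Genes of the Ras-ERK pathway, in which KSR2 acts, were measured in the same libraries. In a list of 30 that includes Ksr2, the LR rose in 2 and fell in 1 in CAD cells, against 0.225% and 0.208% of all genes. It rose in 1 and fell in 1 of the 28 measured in N2A cells, against 0.0893% and 0.0112%. Besides Ksr2 these were Elk1, a transcription factor phosphorylated by ERK, which rose by 0.94 in CAD cells, and Sos2, a guanine nucleotide exchange factor for Ras, which fell by 0.60 in CAD and by 0.89 in N2A cells. The related scaffold Ksr1 had a difference in LR of -0.14 (adjusted p = 0.876, edgeR) in CAD and -0.15 (adjusted p = 0.552, edgeR) in N2A cells. The median of the list was -0.01 in CAD and -0.32 in N2A cells, beside -0.01 in both for all genes. The 7 neuronal markers measured had a median of 0.06 in CAD and -0.33 in N2A cells, and their part in the list's median was not tested.

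In soma 3 genes of the list were higher and 8 lower in knockout CAD cells, where 11.2% of all genes were higher and 11.6% lower. In knockout N2A cells 5 were higher and 1 lower, where 10.9% of all genes were higher and 5.15% lower. Sos2 was higher in both, by 0.54 and 0.59. The lower genes in CAD included Spred1 and Spry2, inhibitors of Ras-ERK signalling, at -0.63 and -0.52, and the lower gene in N2A was Map2k1, which encodes MEK1, at -0.52. No gene of the list passed with Q331K in edgeR.

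Markers of the labelled cell type were present. In CAD and N2A cells 7 of 8 neuronal markers were measured, with Tubb3 at 532 and 343 CPM in wild-type soma, and Nefl did not pass the filter. Of 7 markers of glia, microglia and endothelium, 3 were measured, and Gfap, Aqp4, Mog and Cx3cr1 did not pass the filter in these lines. In knockout soma 1 neuronal marker was higher and 2 lower in CAD cells, and 3 were higher in N2A cells. Of 4 catecholaminergic markers 3 were measured in CAD soma, where Dbh rose from 23.8 to 63.5 CPM, Th fell from 2.24 to 1.32 CPM and Ddc was at 0.581 and 0.635 CPM, without passing. The part of these differences in the Ksr2 values was not tested.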

How the data were processed

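Per the labels and the study's methods, the authors trimmed reads with cutadapt, aligned reporter reads to the oligos with bowtie2 and deposited counts: UMI counts (UMIs of 8 nt) and read counts for the MPRA, read counts for RBNS, and read counts with converted and unconverted T positions for SLAM-seq. For RNA-seq the authors deposited Salmon estimated counts and TPM per transcript (mm10). Tool versions and the read length are not given in the sources used here. Salmon values of a gene's transcripts were added up under GENCODE vM21 names and rounded, and oligo sequences and coordinates were read from the vM21 transcript of Ksr2. TPM was read for Ksr2 transcripts and is not printed.

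edgeR 4.0.16 quasi-likelihood fits (R 4.3.3) covered every oligo or gene of a table, with TMM scaling, except library totals for RBNS, and filterByExpr, and p-values were adjusted by Benjamini-Hochberg at 0.01, or 0.05 for SLAM-seq, where oligos needed 1000 T positions in each labelled library. Pairs were tested on the counts of both partners in 1 model. LR per culture was the log2 of the CPM ratio, and R added 0.5 to each count. The fit for the lone RBNS input and 0 nM libraries takes their spread from the other concentrations. The 2 wild-type SLAM-seq libraries at 0 h were used as they are.

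Named oligos were the ends and the peak of each run of called oligos, the highest and lowest R at 500 nM, and the pairs with the largest rise and fall, with exceptions said in the text. Oligos and gene lists were chosen with earlier results of these data known. Among N2A libraries of the same number, deviations of soma and neurites of the same state correlated by 0.125 to 0.510. Those of different states correlated by -0.111 to 0.456. These ranges overlapped, so that they do not settle which libraries are paired. The ranges also overlapped in the MPRA, CAD and Q331K libraries. Alternatives were DESeq2 1.42.0, limma 3.58.1, other scalings and filters, a replicate block and each library left out. Scripts were tested on simulated data: in the MPRA, 200 of 200 oligos changed by 1 to 2 on the log2 scale were recovered, and in RBNS at 500 nM, 19 of 50 raised by 2. Human samples were not used here.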

Additional observations from a re-analysis of the deposited data

Results flagged for a closer look

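Oligo 1416 was the first of the stretch whose LR rose. In the 4 wild-type cultures it had 1 value far from the others, an LR of -0.00949 in culture 1. The gap to the nearest other culture took 0.871 of the range of the group. The mean LR of the mutated oligos outside the stretch had 1 such value in knockout cells, 0.0145 in culture 3, with a gap of 0.912 of the range. These are the 2 groups of 4 libraries that were flagged. Chance marks about 1 group in 20. Since blocks were not listed, the 2 cannot be set against that rate, and whether they are more or fewer than chance would mark was not tested.

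Soma Ksr2 moved in opposite directions on loss of TDP-43 in the 2 lines. It differed by -0.48 on the log2 scale in CAD cells, where all 3 knockout cultures were below all 3 wild-type cultures, and by 1.10 in N2A cells, where all 3 were above. The difference between the lines itself was not tested.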

How the results depend on the processing

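Among the named oligos, their pairs and the gene, no difference past its threshold changed sign. For the other oligos only the counts of calls were compared. The balance of RBNS calls turned with TMM, in the whole pool as in Ksr2. Differences that were not called did change sign: the change of LR with Q331K ran from -0.13 to 0.13, and log2 R at 500 nM of mutated oligo 20 from -0.20 to 1.21. Of the counts of Ksr2 oligos and the changes of the gene, 231 values under an alternative stayed within 1.5 times the count or on the same side of the threshold, 77 counts moved further and 1 change of LR of the gene lost its call. Its soma differences lost theirs without replicate 2 or 3 in CAD and without replicate 2 in N2A cells. The 136 rises of LR stayed between 132 and 138, and falls, 0 before, were 1 with read counts. Leaving out 1 culture gave 1 to 4 falls in LR in wild-type cells, 9 to 12 in knockout cells, 0 to 1 oligos lower in knockout soma (3 with read counts) and 2 to 6 lower in knockout neurites.

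For RBNS at 500 nM, enriched Ksr2 oligos numbered 149 against the 0 nM library, 170 with DESeq2, 238 with TMM and 38 with a replicate block, and depleted ones 212 with TMM, 188 with the block and 227 to 396 with 1 library left out. At 50 nM, enriched oligos numbered 97, and 38 against the 0 nM library, 178 with DESeq2, 250 with TMM, 47 with the block and 0 to 142 with 1 library left out. The 293 depleted ones became 9, 516, 167, 94 and 0 to 544 in the same order. At 5 nM, DESeq2 gave 3 enriched and 7 depleted, TMM 4 depleted, and leaving out 1 library up to 7 depleted. Pairs tested for binding, 13 higher and 32 lower, were 5 and 11 with the block, 0 and 0 with limma, and 0 to 23 and 0 to 42 with 1 library left out. For these values the cause was not tested.

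Pairs tested for the change of LR kept 18 to 20 lower and 0 to 1 higher without 1 culture, and 0 higher with the block. Limiting them to pairs outside the group with nearly equal counts, a setting chosen after seeing the data, gave 21 lower and 1 higher. The LR values per culture set each neurite library against the soma library of the same state and number. The correlations between libraries do not settle whether these are paired, in any of the cell lines. With the replicate block there were 137 rises of LR in the MPRA. In N2A cells the replicate block gave a change of LR of 4.53, in CAD cells 4.79, and it changed no call of the gene. Without replicate 2 the N2A change was 4.48 (edgeR adjusted p = 0.0148), in a range from 4.36 to 4.88 with 1 replicate left out.

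SLAM-seq rested on knockout replicate 1 at 12 h. Without 1 replicate, oligos with lower label numbered 0 to 2137 in wild-type and 0 to 2165 in knockout cells, and those with a lower ratio between the states 0 to 2101. Relative to the library, a scale chosen after seeing the data, label loss in knockout cells gave 103 higher and 156 lower Ksr2 oligos. Of the pool, 7.74% were higher and 8.91% lower. On that scale and without knockout replicate 1 at 12 h, knockout cells gave 340 higher and 557 lower, against 18.0% and 27.2% of the pool. Wild-type cells gave 9 and 43, against 0.983% and 2.89%. The difference between states gave 160 and 232, against 9.90% and 11.1%, and 4 were higher before the chase.

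Depth limits the stretch in RBNS, where its oligos had few input reads, and the label at 12 h, which in 2 knockout libraries was the lowest of all libraries with 4SU. The test of RBNS binding recovered 0 of 50 simulated oligos raised by 1 on the log2 scale.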
